A study of Mus musculus with 12 samples.

Results

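Immediate early genes are the genes that neurons switch on within minutes of synaptic activity, without needing new protein. 10 of them were followed by symbol in the normalized-count table of the SCA1 mouse brain: Fos, Fosb, Junb, Egr1, Egr2, Egr3, Egr4, Arc, Npas4 and Nr4a1. They are 10 of the 15759 entries of the table, and all 10 were among the 15369 genes tested, those whose normalized counts averaged 10 or more over the libraries. The members were listed by name, as known activity-induced genes, with earlier results of these data known.

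The study sequenced RNA of macrodissected cortex and cerebellum from SCA1 KI mice and WT littermate controls. SCA1 KI mice (Atxn1 154Q/2Q) carry a stretch of 154 glutamine codons in an endogenous Atxn1 allele and 2 in the other, so mutant ataxin-1 is made wherever Atxn1 is normally expressed and no transgene promoter is involved. Both genotypes were on the C57BL/6J background, untreated and 12 weeks old, and there were 3 libraries, from separate mice, for either genotype in either region. In the table, the WT cortex libraries are named B, C and D, the SCA1 KI cortex libraries A, E and F, the WT cerebellum libraries 2, 4 and 6, and the SCA1 KI cerebellum libraries 1, 3 and 5. The labels list male mice and the methods of the study males and females combined, and the cerebellar libraries were taken over from an earlier data set of the same laboratory, so region and data set cannot be told apart.

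When calcium enters an active neuron, the kinases of the MAP kinase and CaM kinase pathways activate the transcription factors CREB, SRF with its partners, and MEF2, which already sit on the promoters of immediate early genes. The products fall into a few kinds. Fos, Fosb and Junb encode subunits of AP-1, a dimeric transcription factor, Egr1 to Egr4 encode zinc finger transcription factors, Npas4 encodes a neuronal bHLH-PAS transcription factor induced by calcium, Nr4a1 encodes an orphan nuclear receptor, and Arc encodes a synaptic protein that drives removal of AMPA receptors from the membrane. The transcripts are short-lived, so their level in tissue follows what the animal experienced shortly before death, and Arc, Egr1 and Fos are widely used as maps of recent activity in the cortex.

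The windows of 250 bases before the annotated start are shown for an AP-1 member, an EGR member, Npas4 and Nr4a1, because CREB and SRF are known to act on immediate early genes through elements in such promoters. They are RefSeq sequences on GRCm38, written 5′ to 3′ on the strand of the gene: Fos chr12:85473640-85473889 (plus strand), Egr2 chr10:67537619-67537868 (plus strand), Npas4 chr19:4989972-4990221 (minus strand) and Nr4a1 chr15:101266596-101266845 (plus strand). Capitals mark the short form of the CREB-binding cAMP response element (TGACG, or CGTCA on the other strand) and, in Egr2, the SRF-binding CArG box.
Fos: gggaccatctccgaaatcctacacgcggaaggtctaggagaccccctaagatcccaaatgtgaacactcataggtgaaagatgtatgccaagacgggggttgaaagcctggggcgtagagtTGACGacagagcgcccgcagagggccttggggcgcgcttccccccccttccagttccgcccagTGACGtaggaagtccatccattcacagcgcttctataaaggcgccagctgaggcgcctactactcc
Egr2: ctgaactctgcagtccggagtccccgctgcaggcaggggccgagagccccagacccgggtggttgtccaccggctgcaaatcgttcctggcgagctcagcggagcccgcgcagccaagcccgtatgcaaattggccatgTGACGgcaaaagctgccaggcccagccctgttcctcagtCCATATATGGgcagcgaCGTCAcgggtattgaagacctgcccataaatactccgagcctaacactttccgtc
Npas4: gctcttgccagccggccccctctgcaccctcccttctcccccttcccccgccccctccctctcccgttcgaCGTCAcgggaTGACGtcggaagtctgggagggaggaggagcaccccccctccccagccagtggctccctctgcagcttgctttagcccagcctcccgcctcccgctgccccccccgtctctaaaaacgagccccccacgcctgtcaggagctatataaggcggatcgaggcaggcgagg
Nr4a1: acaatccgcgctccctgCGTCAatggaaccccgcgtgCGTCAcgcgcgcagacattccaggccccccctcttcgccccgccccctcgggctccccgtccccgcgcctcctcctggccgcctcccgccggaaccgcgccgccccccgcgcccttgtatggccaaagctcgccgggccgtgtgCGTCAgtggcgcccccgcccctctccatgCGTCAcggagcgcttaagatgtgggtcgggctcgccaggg
On positions counted from the start, the short element lies at −129 and −66 in Fos, at −111 and −55 in Egr2, at −179 and −169 in Npas4, and at −233, −213, −69 and −40 in Nr4a1. The CArG box of Egr2 begins at −72 in the window shown, which is the listed one with such a box among 5 start sites. Fosb, Junb and Egr4 hold 1, 1 and 2 of the short elements and no CArG box. The full palindrome TGACGTCA, which contains the short form on each strand, was found in none of the 7 member windows searched and in 1.55% of all 32851 promoter windows of the same length. The short element was found in 17.8% of all windows, a CArG box in 1.47%, and both in 0.17%. Both strands were searched, and the match is a description of the letters in these windows only. Promoters of the other 3 members, Egr1, Egr3 and Arc, are not shown.

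Before the values of the members, the libraries themselves had features that move with genotype. Reads on genes numbered 29520855 to 51311309 per library. Atxn1, the knocked-in gene, was at 6521 to 8147 normalized counts in WT and 4604 to 7249 in SCA1 KI cortex, and at 3628 to 3737 and 3717 to 4138 in cerebellum, and did not pass the test in either region (limma, adjusted p = 0.132 and 0.837). The counts carry no information on repeat length. The tissues carried their defining markers: Fezf2, a factor of deep-layer cortical neurons, was at 514.5 to 1139 normalized counts in cortex and at 0 to 1.2 in cerebellum, and the 6 cerebellar granule cell markers summed to 121674 to 175853 in cerebellum and 1356 to 2198 in cortex. Within the cortex, all 5 markers of neurons in general (Snap25, Syt1, Rbfox3, Nefl and Nefm) were lower in SCA1 KI mice, with a summed level of 277729 to 299063 in WT and 184677 to 203602 in SCA1 KI libraries. Within the cerebellum, 3 of 6 tested markers of thalamus and midbrain were lower in SCA1 KI libraries. Tcf7l2 was at 1480 to 2404 in WT against 210.1 to 249 normalized counts in SCA1 KI libraries. In bulk tissue, fewer cells of a type and less RNA per cell cannot be told apart.

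**Figure D1:**
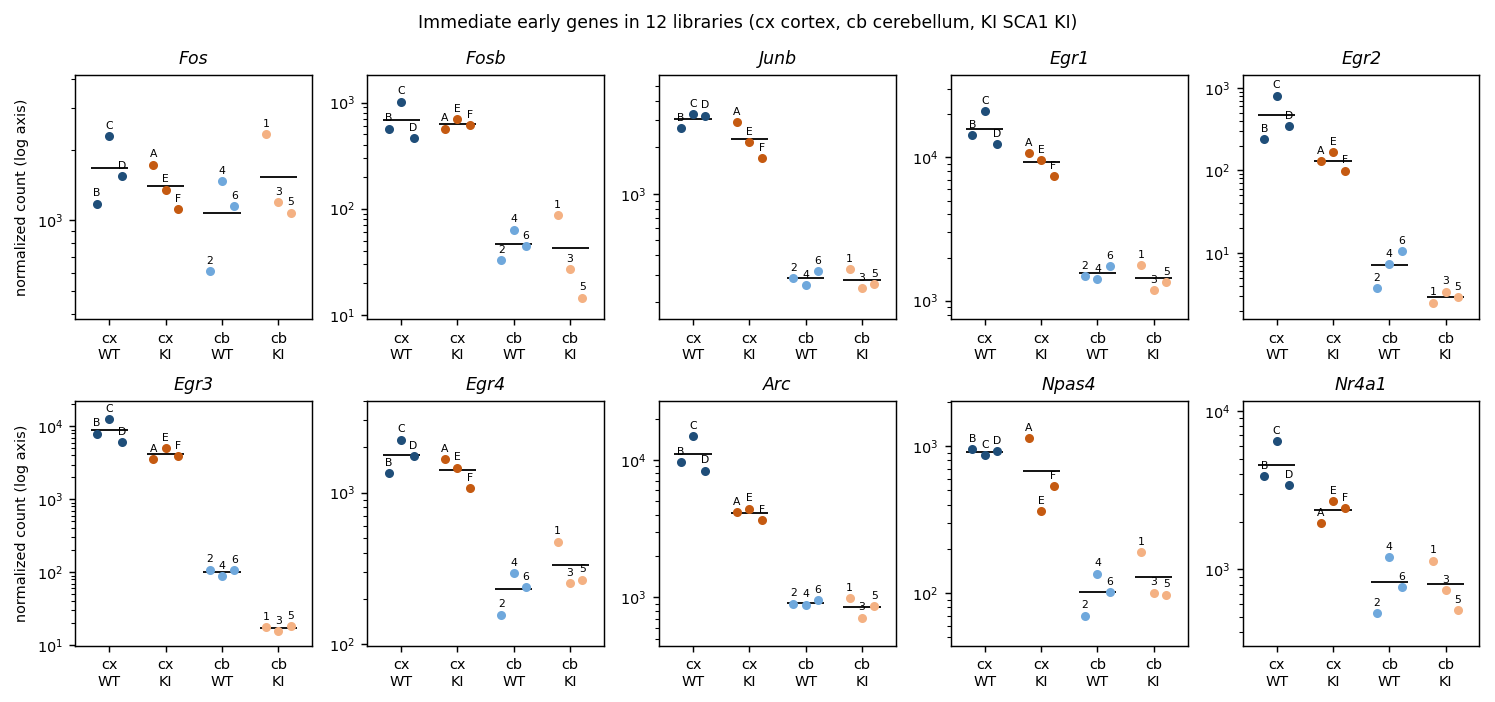
Normalized counts (log axis) of the 10 immediate early genes in each library, in cortex (cx) and cerebellum (cb) of WT and SCA1 KI (KI) mice; points are libraries with their names and lines are group means (n = 3). In the cortex the 3 SCA1 KI libraries lie below the 3 WT libraries for Egr1, Egr2, Egr3, Arc and Nr4a1, and in the cerebellum for Egr2 and Egr3.

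In the SCA1 KI cortex, Arc and 3 of the 4 EGR genes were lower than in WT littermate controls, and no immediate early gene was higher. Arc fell 2.62-fold, Egr2 3.13-fold, Egr3 2.04-fold and Egr1 1.69-fold. The AP-1 genes Fos, Fosb and Junb, as well as Egr4, Npas4 and Nr4a1, did not pass the test. Thus 4 of the 10 members were lower, where 10.8% of all tested genes were lower, and 0 of 10 were higher, where 4.82% of all were. The tests were limma fits on log2(normalized count + 1) over 15369 genes, and a gene was counted at a Benjamini-Hochberg adjusted p below 0.05 with an absolute LFC (log2 fold change) over 0.25. Counts of 0 higher members were also obtained with edgeR, with DESeq2 and at an unadjusted p below 0.05, at which 6 were lower. The median LFC of the 10 members was −0.68, beside −0.003 for all tested genes. All 10 had an LFC below 0, as did 7755 of all 15369 tested genes.

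Positions of the protein-coding genes are on GRCm38 from GENCODE. Arc (chr15:74669083-74672570, minus strand) had 9641, 14995 and 8367 normalized counts in WT cortex libraries B, C and D, and 4176, 4421 and 3654 in SCA1 KI cortex libraries A, E and F. Every SCA1 KI library lay below every WT library, and the SCA1 KI libraries were close to each other, with an SD of 9.59% of their mean against 32.0% in WT. The LFC was −1.39 (standard error 0.18, 95% confidence interval −1.77 to −1.01, limma adjusted p = 0.000197). It passed with each library left out in turn, with an LFC between −1.56 and −1.14, and under each setting that kept all libraries, with an LFC between −1.43 and −1.31.

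Among the EGR genes, Egr3 (chr14:70077203-70082614, plus strand) is needed for muscle spindles and for memory in mice. It had 7931, 12423 and 6081 normalized counts in the WT cortex and 3583, 4994 and 3946 in the SCA1 KI cortex. Again the groups did not overlap, with WT library C far above the others. Its LFC was −1.03 (standard error 0.21, limma adjusted p = 0.00437), and it passed without any 1 library, between −1.26 and −0.75.

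Egr1 (chr18:34859823-34864984, plus strand), a factor tied to the maintenance of synaptic plasticity, had 14234, 21059 and 12349 normalized counts in WT and 10777, 9577 and 7400 in SCA1 KI cortex. The groups did not overlap, but the lowest WT library stood only slightly above the highest SCA1 KI library. The LFC was −0.76 (standard error 0.20, limma adjusted p = 0.0178). Without WT library C it was −0.54 (adjusted p = 0.0743) and without SCA1 KI library F −0.61 (adjusted p = 0.068), so the call was lost without either of these libraries.

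Egr2, also known as Krox20 and best studied in myelinating cells and the hindbrain (chr10:67535475-67542188, plus strand), was the EGR gene with the lowest level. Its normalized counts were 238.9, 806 and 343 in the WT cortex and 128, 167 and 99.1 in the SCA1 KI cortex. The groups did not overlap, and WT library C alone was more than 2 times the level of any other. The LFC was −1.65 (standard error 0.42, limma adjusted p = 0.0165), and like Egr1 it lost the call without WT library C (LFC −1.15, adjusted p = 0.0703) or without SCA1 KI library F (LFC −1.46, adjusted p = 0.0588).

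Egr4 (chr6:85511121-85513589, minus strand), the fourth EGR factor of the nervous system, had 1339, 2234 and 1741 normalized counts in WT and 1666, 1460 and 1073 in SCA1 KI cortex. These ranges overlapped. Its LFC of −0.33 (95% confidence interval −0.94 to 0.27, limma adjusted p = 0.465) did not pass.

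The AP-1 genes gave no call in the cortex. Fos (chr12:85473890-85477273, plus strand), which acts only when paired with a JUN protein, had 1180, 2290 and 1543 normalized counts in WT and 1728, 1352 and 1115 in SCA1 KI cortex. The lowest of the 6 values was in the SCA1 KI group and the highest in the WT group, but the ranges overlapped. The LFC of Fos was −0.23 (95% confidence interval −0.98 to 0.53, limma adjusted p = 0.707), and it was 0.03 without WT library C.

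Fosb (chr7:19302696-19310051, minus strand), whose truncated splice form accumulates with chronic stimulation, had 566.8, 1019 and 464.5 normalized counts in WT and 568, 693 and 614.5 in SCA1 KI cortex. These counts are per gene and do not separate that form. The 3 SCA1 KI values lay within the range of the WT values. The LFC was −0.05 (95% confidence interval −1.12 to 1.02, limma adjusted p = 0.958). It turned positive without WT library C (0.28), without SCA1 KI library A (0.02) and once a trend of the LFC on exon length and GC was removed (0.09).

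Junb, a JUN family partner of FOS (chr8:84974484-84978718, minus strand), overlaps exons of Prdx2 on the other strand, and its counts may include reads of that gene. It had 2665, 3294 and 3216 normalized counts in WT and 2927, 2164 and 1705 in SCA1 KI cortex. Only SCA1 KI library A reached into the WT range. The LFC of −0.46 (95% confidence interval −0.83 to −0.09, limma adjusted p = 0.084) did not pass. With SCA1 KI library A left out, Junb passed at −0.66 (adjusted p = 0.0105).

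Npas4 (chr19:4984355-4990316, minus strand), which controls inhibitory synapse number, showed the largest spread among the SCA1 KI cortex libraries. It had 948, 870.3 and 921 normalized counts in WT and 1126, 360.3 and 534 in SCA1 KI cortex. The WT libraries were nearly alike, with an SD of 4.34% of the mean, whereas SCA1 KI library A was above all of them and libraries E and F well below. The LFC was −0.60 (95% confidence interval −1.39 to 0.19, limma adjusted p = 0.295). With SCA1 KI library A left out, Npas4 passed at −1.05 (adjusted p = 0.0378).

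Nr4a1, also named Nur77 (chr15:101254269-101274795, plus strand), had 3868, 6433 and 3403 normalized counts in WT and 1963, 2692 and 2439 in SCA1 KI cortex. The groups did not overlap, yet the LFC of −0.90 (standard error 0.31, 95% confidence interval −1.59 to −0.22, limma adjusted p = 0.0665) did not pass. It passed when the cortex was fitted without the cerebellum (adjusted p = 0.0293) and without cerebellar WT library 2 or 4 (adjusted p = 0.0411 and 0.0414). These settings leave the LFC as it is and change the estimate of the spread and the adjustment.

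**Figure D2:**
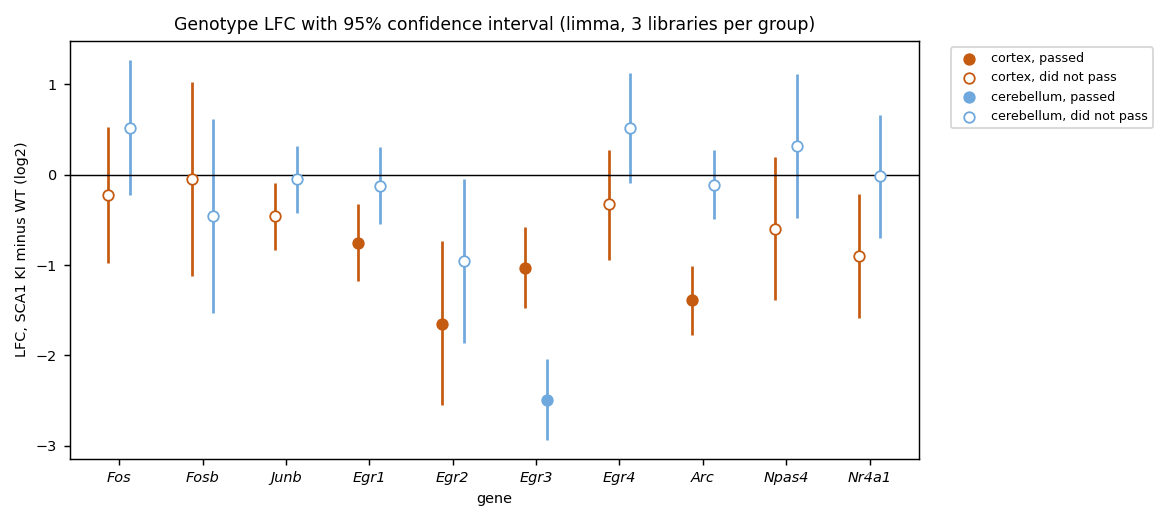
LFC of SCA1 KI against WT (log2) for the 10 immediate early genes in cortex and cerebellum, with 95% confidence intervals from limma; filled points passed the test. Arc, Egr1, Egr2 and Egr3 passed in the cortex and only Egr3 passed in the cerebellum, where its LFC was −2.49.

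WT library C was the highest WT cortex library in 9 of the 10 members, Npas4 being the exception, while it was highest for 30.5% of all tested genes. Among the SCA1 KI cortex libraries, A was the highest for 5 members and for 37.8% of all tested genes, and E for 5 and 32.6%. Library F was the lowest for 6 members, and the share of all tested genes for this was not determined. The count of lower members fell from 4 to 2 without WT library C or without SCA1 KI library F, leaving Arc and Egr3, and rose to 6 without SCA1 KI library A. Counting by overlap in place of the test, the 3 SCA1 KI libraries lay below the 3 WT libraries for 5 of 10 members in the cortex, where this held for 18.0% of all tested genes.

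**Figure D3:**
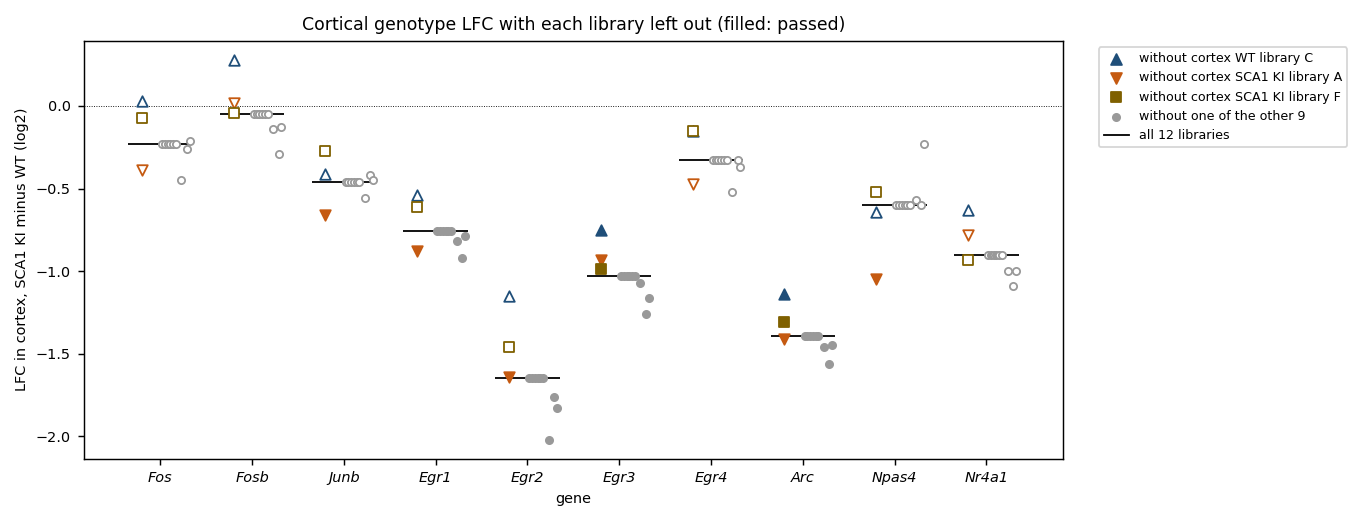
LFC of SCA1 KI against WT in the cortex (log2) for each member with 1 of the 12 libraries left out at a time; black lines are the LFC with all libraries and filled symbols passed the test. Arc and Egr3 stay filled throughout, Egr1 and Egr2 turn open without WT library C or SCA1 KI library F, Junb and Npas4 turn filled without SCA1 KI library A, and Nr4a1 without cerebellar library 2 or 4.

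Since all members rise together when neurons fire, each was also set against Fos of the same cortex library, a ratio chosen after the values were seen. Arc was 8.17, 6.55 and 5.42 times Fos in the WT libraries B, C and D and 2.42, 3.27 and 3.28 times in the SCA1 KI libraries A, E and F. Egr1 was 12.1, 9.2 and 8.01 times Fos in WT and 6.24, 7.08 and 6.63 times in SCA1 KI libraries. WT library C was not the highest for either gene on this scale, and the groups did not overlap. Egr3 was 3.94 to 6.72 times Fos in WT and 2.07 to 3.69 times in SCA1 KI libraries, and Nr4a1 was 2.21 to 3.28 times Fos in WT and 1.14 to 2.19 times in SCA1 KI libraries. Egr2 was 0.202 to 0.352 times Fos in WT and 0.0742 to 0.124 times in SCA1 KI libraries. Egr4 was 0.976 to 1.13 times Fos in WT and 0.962 to 1.08 times in SCA1 KI libraries, with overlap. Fosb overlapped as well (0.301 to 0.48 against 0.329 to 0.551), as did Junb (1.44 to 2.26 against 1.53 to 1.69). The same held for Npas4 (0.38 to 0.804 against 0.266 to 0.652). Arc, Egr1, Egr2, Egr3 and Nr4a1 also did not overlap without the ratio, so their separation on this scale is not a further result. The share of all tested genes whose groups did not overlap on this scale was not determined. Fos varied with the other members from library to library, so these ratios are given as a description only.

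The markers of neurons fell in the same cortex libraries, with an LFC of −0.64 for Snap25, a protein of synaptic vesicle release, and −0.72 for Rbfox3, which encodes NeuN. Set against the sum of the 5 neuron markers of its library, a scale also chosen after the values were seen, Arc was at 34.7, 50.1 and 29.5 per 1000 in WT and 20.5, 21.9 and 19.8 per 1000 in SCA1 KI libraries. Egr2 was at 0.86, 2.7 and 1.21 per 1000 in WT and 0.629, 0.827 and 0.537 per 1000 in SCA1 KI libraries. These were the 2 of 10 members whose groups did not overlap on this scale, where 2.23% of all tested genes did so in the same direction. The sum of the neuron markers was itself lower in the SCA1 KI libraries, which raises the ratio of every gene there, so that share is no yardstick for the members. Egr3 was at 28.6, 41.5 and 21.4 per 1000 in WT and 17.6, 24.7 and 21.4 per 1000 in SCA1 KI libraries, so that its groups overlapped. Egr1 overlapped as well, at 43.5 to 70.4 against 40.1 to 52.9 per 1000, and so did Nr4a1, at 12.0 to 21.5 against 9.64 to 13.3 per 1000.

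Other gene groups moved in the cortex beside the members, and their part in the members' values was not tested. The counts below stand beside 10.8% lower and 4.82% higher among all tested genes. Of 16 genes of the circadian clock, 8 were lower and 0 higher in SCA1 KI mice (limma; 13 lower and 1 higher at an unadjusted p below 0.05, 8 and 9 lower with edgeR and DESeq2, 0 higher with either). Their summed level was 68791 to 81060 in WT and 43909 to 55412 in SCA1 KI cortex. Dbp, an output gene of the clock with a strong daily rhythm, was at 2050, 1781 and 5211 normalized counts in WT libraries B, C and D and at 2954, 921 and 1034 in SCA1 KI libraries A, E and F. Its groups overlapped and it did not pass (LFC −0.92, limma adjusted p = 0.152), and it is named here after its values were seen. WT library D, the highest of its group in Dbp, was the highest in 0 members and in 33.0% of all tested genes. SCA1 KI library A was the highest of its group in Dbp, in 5 members and in 37.8% of all tested genes. Of 11 genes of the glucocorticoid response 2 were lower (Per1 and Zbtb16), and of 5 heat shock genes 2 were lower (Hspa1a and Hspa1b). Of 8 markers of cortical excitatory neurons, 2 were lower (Slc17a7 and Cux2). Of 6 tested markers of thalamus and midbrain, 2 were higher in SCA1 KI cortex, Pou4f1 (2.2 to 6.8 against 217 to 372 normalized counts) and Shox2 (0 in each WT library against 16.2 to 51.4). Of 5 striatal markers 1 was lower (Ppp1r1b), of 5 hippocampal markers 1 (Wfs1), of 5 astrocyte markers 3 and of 6 Purkinje cell markers 4. No marker of forebrain interneurons passed (limma), though 2 were lower and 1 higher at an unadjusted p below 0.05, with the same counts from edgeR and 1 each from DESeq2. Of 5 endothelial markers 0 passed (limma, edgeR and DESeq2) and 1 was lower at an unadjusted p below 0.05, and of the 5 each of microglia, oligodendrocytes and choroid plexus 0 passed by any of these. Of the 6 granule cell markers 1 was higher (En2), and Alas2, the 1 blood marker of 5 in the table, was lower.

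The genes around the members in the pathway were followed through 6 lists, which hold 79 tested genes. In the cortex 10.8% of all tested genes were lower and 4.82% higher. For the lists of 5 and 4 genes, 1 passing gene is too few to be set apart from that share. Where a list has 0 higher genes in the cortex, the count was also 0 with edgeR, with DESeq2 and at an unadjusted p below 0.05. Among 31 other genes that activity induces rapidly, 10 were lower in the SCA1 KI cortex and 0 were higher (limma), with a median LFC of −0.45. Dusp1, a phosphatase that switches off MAP kinases, was at 1495, 1897 and 1695 normalized counts in WT and 967, 876 and 793 in SCA1 KI cortex (LFC −0.95, standard error 0.15, limma adjusted p = 0.000971). Homer1, whose short activity-induced form loosens the postsynaptic scaffold, was at 10950, 15739 and 8152 against 5190, 6501 and 5355 (LFC −0.99, standard error 0.19, limma adjusted p = 0.00295). Counts per gene do not tell this form from other forms of Homer1. In both genes the groups did not overlap. Ier5 (LFC −0.73) and Csrnp1 (LFC −0.65), nuclear proteins of the early response, were lower as well, as were Dusp6, Klf10, Ptgs2, Trib1, Per1 and Fbxo33.

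Among 5 further AP-1 partners, 1 was lower and 0 higher. This was Fosl2, at 1618, 2834 and 1150 normalized counts in WT and 371.5, 997 and 863 in SCA1 KI cortex (LFC −1.35, standard error 0.43, limma adjusted p = 0.0477). Its groups did not overlap, but it passed narrowly and lost the call without any 1 of 7 libraries (cortex A, B, C and F and cerebellum 1, 3 and 6), with an LFC as small as −0.91 and an adjusted p up to 0.187. The call was also lost with the cortex fitted alone (adjusted p = 0.0621) and without the filter on low genes (adjusted p = 0.0502).

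Among 11 delayed activity genes, which respond to the immediate early factors or to later signalling, 3 were lower and 0 higher in the SCA1 KI cortex (limma), and 5 were lower with DESeq2. Nrn1, which encodes the growth-promoting neuritin, was at 11659, 14211 and 12995 normalized counts in WT and 5926, 6959 and 6337 in SCA1 KI cortex (LFC −1.01, standard error 0.081, limma adjusted p = 1.06e-05). This was the smallest adjusted p of the named activity genes in the cortex. Rasgrp1, a calcium-responsive activator of RAS, had an LFC of −0.49, and Sorcs3, a sorting receptor of the postsynapse, one of −0.76. Bdnf, the neurotrophin that activity induces, was at 1474, 2158 and 1337 in WT and 801, 1276 and 1118 in SCA1 KI cortex and did not pass (limma adjusted p = 0.0906); it is named here after its values were seen.

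Upstream of the members, 5 of 16 transcription factors and coactivators were lower and 1 was higher in the SCA1 KI cortex. Srf, which binds CArG boxes, was at 2448, 2479 and 2302 normalized counts in WT and 1831, 2102 and 1855 in SCA1 KI cortex (LFC −0.32, standard error 0.08, limma adjusted p = 0.015). The change was small next to those of Arc, Egr1, Egr2 and Egr3, though the groups did not overlap. Srf lost the call without WT library C or SCA1 KI library F (adjusted p up to 0.0561) and with length and GC trends removed (adjusted p = 0.0642). Its coactivator Mkl2 (LFC −0.54), the CREB coactivator Crtc1 (LFC −0.40), and Mef2d (LFC −0.45) and Mef2c were lower too, and the CREB coactivator Crtc2 was higher (LFC 0.29). Crtc1 lost the call with length and GC trends removed (adjusted p = 0.055).

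Of 12 upstream kinases, 3 were lower and 1 was higher in the SCA1 KI cortex. Camk4, the nuclear kinase that phosphorylates CREB, was at 19931, 20994 and 19810 normalized counts in WT and 9143, 11844 and 9155 in SCA1 KI cortex (LFC −1.02, standard error 0.12, limma adjusted p = 0.000133). Mapk3, which encodes ERK1, was at 5730, 4681 and 6174 in WT and 8319, 7347 and 6930 in SCA1 KI cortex and was thus higher (LFC 0.45, standard error 0.098, limma adjusted p = 0.00662). Neither gene's groups overlapped. Rps6ka2 (LFC −0.39) and Rps6ka3 (LFC −0.41), ribosomal S6 kinases downstream of ERK, were lower, the latter losing the call without cortex library A, C or F (adjusted p up to 0.082) and with the cortex fitted alone (adjusted p = 0.0525). Of the 4 partners of EGR and NPAS4 proteins, Arnt2, the dimer partner of NPAS4, was lower (LFC −0.37, limma adjusted p = 0.0135) and 0 were higher. With length and GC trends removed, Rps6ka2 and Arnt2 lost their calls (adjusted p = 0.0715 and 0.0641).

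**Figure D4:**
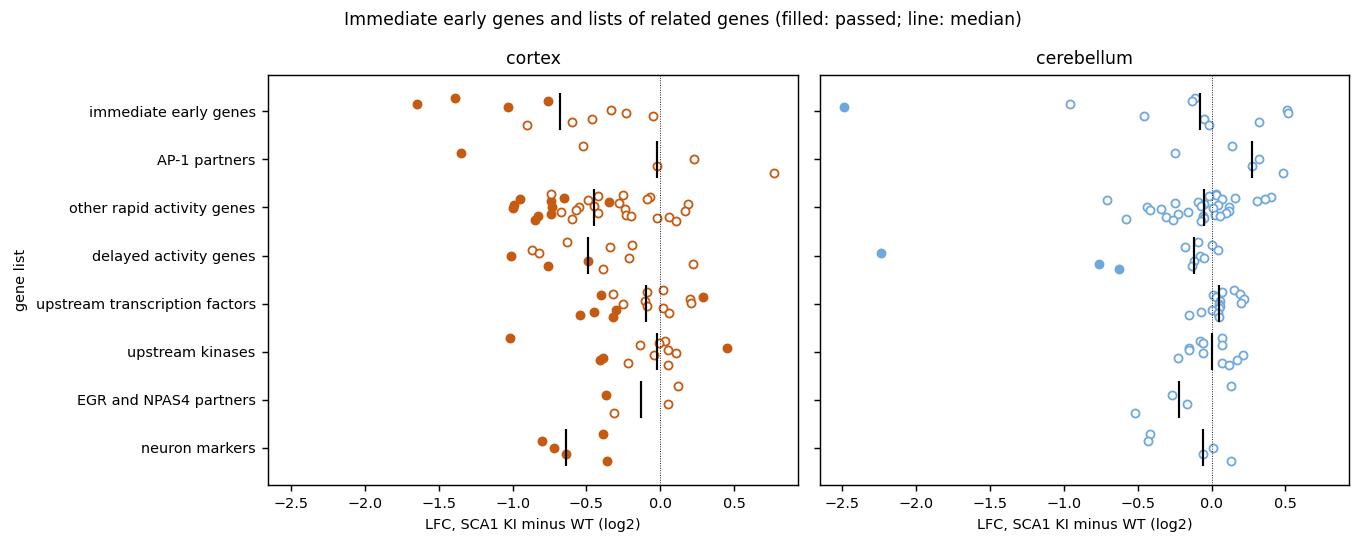
LFC of SCA1 KI against WT (log2) of each tested gene in the immediate early genes, 6 lists of related genes and 5 neuron markers, in cortex (left) and cerebellum (right); filled points passed the test and black lines are list medians. In the cortex every median lies below 0. It is −0.68 for the immediate early genes, −0.45 for other rapid and −0.49 for delayed activity genes, and −0.64 for neuron markers. For the remaining lists it is between −0.13 and −0.02. In the cerebellum 1 member and 3 delayed genes passed.

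In the SCA1 KI cerebellum, Egr3 was the only immediate early gene that passed, and its fall was the largest of any member in either region, 5.6-fold. The count was 1 of 10 lower, where 4.44% of all tested genes were lower, and 0 of 10 higher, where 0.917% were. Counts of 1 and 0 were also obtained with edgeR and DESeq2, and 2 members were lower and 0 higher at an unadjusted p below 0.05. The median LFC of the members was −0.08, beside −0.005 for all tested genes.

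Egr3 had 109, 89.2 and 107 normalized counts in the WT cerebellum libraries 2, 4 and 6, and 17.7, 15.8 and 18.4 in the SCA1 KI libraries 1, 3 and 5. These were 119, 73 and 92 reads against 21, 23 and 19 reads, so the level was low but well above the floor of 3 reads. The groups were far apart and tight, with an SD of 10.7% of the mean in WT and 7.79% in SCA1 KI libraries. The LFC was −2.49 (standard error 0.21, 95% confidence interval −2.93 to −2.04, limma adjusted p = 2.6e-05), and it lay between −2.58 and −2.43 with each library left out.

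Some genes that mark brain tissue outside the cerebellum were lower in the same libraries as Egr3, and others of the same lists did not pass. The counts below stand beside 4.44% lower and 0.917% higher among all tested genes. Of 6 tested markers of thalamus and midbrain, 3 were lower in the SCA1 KI cerebellum (Tcf7l2, Pou4f1 and Shox2), and the 7 markers in the table summed to 4605 to 5748 normalized counts in WT and 2651 to 2718 in SCA1 KI libraries. Tcf7l2, a defining factor of thalamic neurons, was at 2404, 1480 and 2051 in WT libraries 2, 4 and 6 and at 223, 210.1 and 249 in SCA1 KI libraries (LFC −3.09, limma adjusted p = 5.19e-05). Shox2 was at 210.0 normalized counts in WT library 2, at 119.7 in 4 and at 185 in 6, and at 0 to 9.7 in SCA1 KI libraries. Prkcd, the most abundant of them, was at 2563 to 2670 in WT and 2269 to 2361 in SCA1 KI libraries, and Th at 303 to 351.5 and 129.8 to 163, and neither passed. Of 5 markers of forebrain interneurons 2 were lower, Sst (864, 368 and 528 in WT against 56.4, 41.2 and 72.6) and Vip (129.6, 81.8 and 81.5 against 2.5, 0 and 1.9). The other 3, Lhx6, Dlx1 and Dlx2, had at most 13 reads in a cerebellar library and an LFC of 0.12, 0.77 and 1.04 and did not pass, and the median LFC of the list was 0.12. The cortical gene Fezf2 was near 0 in both genotypes, with at most 1 read in a library. Of the other lists, 1 of 5 hippocampal markers (Fibcd1), 1 of 6 Purkinje cell markers (Rgs8), 1 of 5 microglial markers (P2ry12) and 1 of 5 astrocyte markers (Aldh1l1) were lower, and Tbr1, of 8 cortical markers, was higher. Of 5 oligodendrocyte markers 0 passed (limma and edgeR), with 3 lower by DESeq2 and 4 at an unadjusted p below 0.05, and their sum was 163466 to 250154 in WT and 139174 to 139535 in SCA1 KI libraries. Of 5 neuron markers 0 passed (limma; 1 lower with edgeR, 2 with DESeq2 and at an unadjusted p below 0.05), and of 5 striatal markers 0 passed (limma and edgeR; 1 lower with DESeq2, 2 at an unadjusted p below 0.05). Of granule cell, choroid plexus, endothelial, heat shock and glucocorticoid genes 0 passed by limma, edgeR, DESeq2 or at an unadjusted p below 0.05. Whether Egr3 in the WT cerebellum came from cerebellar cells or from such tissue was not tested.

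**Figure D5:**
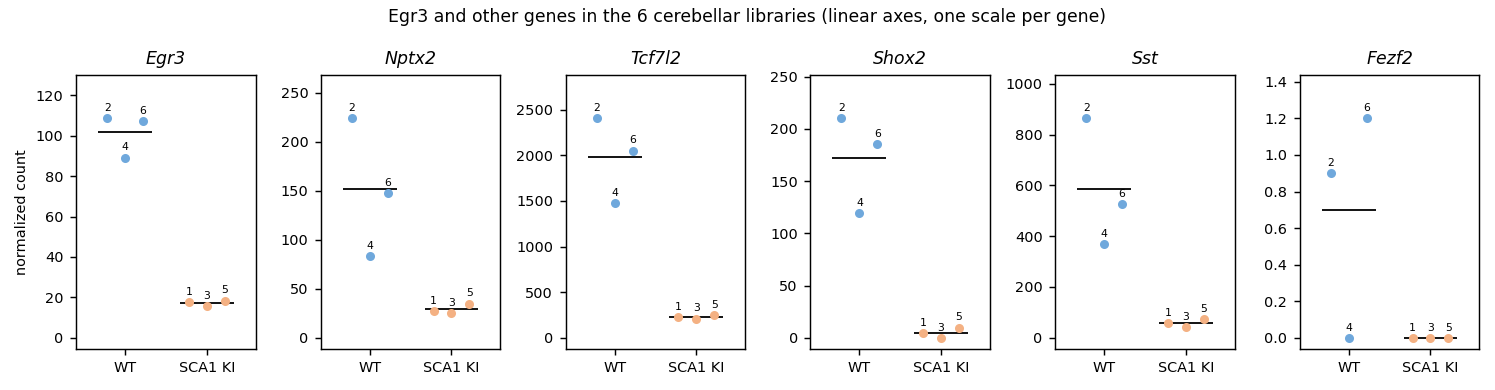
Normalized counts (linear axes, a scale of its own for each gene) of Egr3, the delayed activity gene Nptx2, the thalamic genes Tcf7l2 and Shox2, the interneuron gene Sst and the cortical gene Fezf2 in the 6 cerebellar libraries, genes chosen after their values were seen except Egr3 and Nptx2; points are libraries with their names and lines are group means. The first 5 genes are high in the 3 WT libraries and low in the 3 SCA1 KI libraries, while Fezf2, on its far smaller scale, is at 0 to 1.2 in all, which is at most 1 read in a library. Not shown are Pou4f1 and Vip of the same marker lists, which were lower, and Prkcd, Th, Slc6a4, Lhx6, Dlx1 and Dlx2, which did not pass.

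None of the other 9 members passed in the cerebellum. Arc was at 900.2, 886 and 952 normalized counts in WT and 989, 711 and 859 in SCA1 KI cerebellum, with overlapping groups and an LFC of −0.11 (95% confidence interval −0.49 to 0.27, limma adjusted p = 0.83). Egr1 was at 1484, 1421 and 1741 against 1766, 1184 and 1347 (LFC −0.13, 95% confidence interval −0.55 to 0.30). Junb was at 284, 258 and 317 against 326, 246.5 and 259.5 (LFC −0.05, 95% confidence interval −0.42 to 0.32). For these 3 genes the SCA1 KI values spanned the WT values, library 1 being the highest and library 3 the lowest. Egr2 was scarcely detected, with 4, 6 and 9 reads in WT and 3, 5 and 3 reads in SCA1 KI libraries, and did not pass at this depth, although the groups did not overlap (LFC −0.96, limma adjusted p = 0.257).

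Fos was at 606, 1467 and 1148 normalized counts in WT and 2323, 1200 and 1080 in SCA1 KI cerebellum. SCA1 KI library 1 was above all other cerebellar libraries and WT library 2 below them. The LFC was 0.52 (95% confidence interval −0.23 to 1.27, limma adjusted p = 0.507). The same libraries stood at the extremes for Egr4 (157, 296 and 239 against 475, 254 and 267) and for Npas4 (70.3, 135.6 and 101 against 189.6, 101 and 97.8), and neither passed (LFC 0.51 and 0.32). Fosb was at 32.9, 63.5 and 44.3 against 87.6, 26.8 and 14.5, and Nr4a1 at 527, 1198 and 770 against 1135, 742 and 552, with an LFC of −0.46 and −0.02. SCA1 KI library 1 was the highest of its group for 8 of the 10 members, and it was highest for 34.3% of all tested genes. Counted by overlap, Egr2 and Egr3 were the 2 of 10 members with all SCA1 KI libraries below all WT libraries, where this held for 17.5% of all tested genes.

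Among the related genes in the cerebellum, only delayed activity genes passed, 3 of 11 being lower, where 4.44% of all tested genes were lower. Nptx2, a secreted pentraxin that clusters AMPA receptors, was at 224, 83.1 and 147.9 normalized counts in WT and 27, 25.4 and 34.9 in SCA1 KI cerebellum (LFC −2.24, standard error 0.32, limma adjusted p = 0.00147). Scg2, which encodes a neuropeptide precursor of secretory granules, was at 9680, 8140 and 8242 in WT and 4997, 5161 and 5213 in SCA1 KI cerebellum (LFC −0.76, limma adjusted p = 0.00197). Vgf, another neuropeptide precursor, had an LFC of −0.63 (limma adjusted p = 0.0317) and lost the call without library 2, 3, 5 or 6 (adjusted p up to 0.133) and with length and GC trends removed (adjusted p = 0.0899). In the 5 other activity lists 0 genes were lower and 0 higher (limma; at an unadjusted p below 0.05, 3 rapid genes, 2 kinases and 2 partners were lower and 2 AP-1 partners and 1 upstream factor higher; edgeR called 0 and DESeq2 2 rapid genes and 1 partner lower). The clock genes Per3, Tef and Hlf were lower, 3 of 16.

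The genotype effects in the 2 regions were then compared directly, as the difference of the LFC in cortex from that in cerebellum. The difference passed for 2 of 10 members, Arc and Egr3, where it passed for 8.15% of all tested genes. For Arc it was −1.28 (standard error 0.25, limma adjusted p = 0.00728), as Arc was lower in the SCA1 KI cortex and did not pass in the cerebellum. For Egr3 it was 1.46 (standard error 0.29, limma adjusted p = 0.00883), as Egr3 was lower in both and more so in the cerebellum, and this call was lost with edgeR (adjusted p = 0.0666). The other 8 members did not pass, so a regional difference in their genotype effect was not shown. For Egr1 and Egr2, which passed in the cortex only, the differences were −0.63 (95% confidence interval −1.23 to −0.03, limma adjusted p = 0.207) and −0.69 (95% confidence interval −1.97 to 0.59, limma adjusted p = 0.561).

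Between regions, 9 of the 10 members were higher in cortex than in cerebellum in WT mice, where 31.0% of all tested genes were, and the same count of 9 held in SCA1 KI mice, where 32.0% were. Fos was the exception in both genotypes, with an LFC of 0.68 (95% confidence interval −0.08 to 1.43, limma adjusted p = 0.103) in WT and −0.07 (95% confidence interval −0.82 to 0.68, limma adjusted p = 0.871) in SCA1 KI mice. Without cerebellar WT library 4, Fos passed in WT mice as well (LFC 0.95, limma adjusted p = 0.0383), which made 10 of 10. The largest differences between regions were those of Egr3, 82.4-fold higher in the WT cortex and 226-fold in the SCA1 KI cortex, and of Egr2, at an LFC of 5.73 and 5.04. Egr2 had 3 to 9 reads in each cerebellar library, and its LFC moved between 5.12 and 6.05 in WT and between 4.07 and 5.46 in SCA1 KI mice over the settings that kept all libraries. Fosb, Junb, Egr1, Egr4, Arc, Npas4 and Nr4a1 were 5.58-fold to 14.0-fold higher in the WT cortex. As the regions come from separate data sets, these folds describe the libraries.

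Per kilobase of exon, the level of Arc was the highest in the WT cortex, at 3599 ± 1150 normalized counts per kilobase (SD, n = 3), and that of Egr1 was close to it, at 3542 ± 1022. They were followed by Egr3 at 2000 ± 740, Junb at 1329 ± 149, Nr4a1 at 1302 ± 465, Egr4 at 825 ± 209 and Fos at 710 ± 241 per kilobase. Each of these overlapped its neighbour in the order. The step from Fos down to Npas4, at 221 ± 9.57 per kilobase, was the one gap without overlap, and Egr2 (136 ± 88.9) and Fosb (109 ± 47.2) came last. In the SCA1 KI cortex Egr1 was the highest, at 2063 ± 382 per kilobase, with no overlap with Arc, at 1336 ± 128. In the WT cerebellum the order began with Fos, at 457 ± 185 per kilobase, ahead of Egr1 at 345 ± 37.9 and Arc at 298 ± 11.3, and ended with Egr2 at 2.11 ± 1.01. Egr3, the third of 10 in the WT cortex, was the eighth of 10 in the WT cerebellum and the ninth in the SCA1 KI cerebellum, at 23.1 ± 2.46 and 3.92 ± 0.306 per kilobase.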

How the data were processed

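RNA of 12 libraries, 3 from each of cortex and cerebellum of WT and SCA1 KI mice, was analysed. Alignment by the authors was with STAR (mm10), gene counting with featureCounts and normalization with DESeq2 (versions not given in the sources used here). They deposited 1 table of normalized counts, whose signal is the reads divided by a size factor of each library. In every library 100% of values were whole reads within 0.01 reads, so counts were recovered for edgeR 4.0.16 and DESeq2 1.42.0. No replicate was a copy of another (chi-square of read counts over genes, per gene, 7.54 to 36.58).

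log2(normalized count + 1) was fitted in R 4.3.3 by limma 3.58.1 with a mean-variance trend, using 12 libraries, 4 group means and no covariate, for 15369 genes with a mean of at least 10, leaving out 390. p were Benjamini-Hochberg adjusted over all tested genes. A fold change on this scale understates that of low genes. Intervals cover the spread between libraries. Scripts were tested on simulated data. Coordinates and exon lengths are from GENCODE vM21 (GRCm38), which matched 14978 of 15758 symbols, and promoters from RefSeq on GRCm38.

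The members, lists and tests were chosen with earlier results of these data known. Named genes were all members, up to 4 passing genes with the smallest p per activity list and region, and the 6 genes most alike in pattern; genes listed only as passing and markers fall outside this rule and were chosen after their values were seen. Alternatives tried were a pseudocount of 0.5 or 5, a minimum mean of 100 or none, each region alone, median centring, edgeR, DESeq2, LFC limits of none and 1, removal of length and GC trends (95.1% of genes), thinning to 29520855 reads, and leaving out each library. Ratios to Fos and to neuron markers were added after seeing the data. Strandedness of the counting is not given in the sources used here.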

Additional observations from a re-analysis of the deposited data

Results flagged for a closer look

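The genotype effect differed between cortex and cerebellum, by the limma test of that difference over all tested genes, for 2 immediate early genes and 9 related genes named above. Values are the LFC in cortex minus that in cerebellum. Arc had a difference of −1.28 (adjusted p = 0.00728) and Egr3 one of 1.46 (adjusted p = 0.00883). Of the 31 rapid activity genes 5 passed. The difference was −1.01 for Dusp1 (adjusted p = 0.0113), −1.02 for Homer1 (adjusted p = 0.0315) and −0.84 for Ier5 (adjusted p = 0.0328). For Csrnp1 it was −0.81 (adjusted p = 0.0195) and for Dusp6 −1.05 (adjusted p = 0.028). Of the 11 delayed genes, 1 passed below 0 and 1 above, Nrn1 at −0.94 (adjusted p = 0.000665) and Scg2 at 0.97 (adjusted p = 0.00308). Of the 12 kinases, 2 passed below 0 and 1 above. The difference was −1.09 for Camk4 (adjusted p = 0.00221), −0.58 for Rps6ka3 (adjusted p = 0.0317) and 0.60 for Mapk3 (adjusted p = 0.0178). Such differences were not particular to activity genes. Of the 5 neuron markers 3 passed, Snap25 (−0.58, adjusted p = 0.00362), Syt1 (−0.49, adjusted p = 0.00561) and Rbfox3 (−0.73, adjusted p = 0.00816). The differences below 0 given here belong to genes that were lower in the SCA1 KI cortex and did not pass in the cerebellum. Scg2 was lower in the cerebellum only, with an LFC of 0.22 in the cortex that did not pass, and Mapk3 was higher in the cortex only.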

How the results depend on the processing

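The settings that kept all libraries gave 3 to 5 lower and 0 higher members in the cortex and 1 lower member in the cerebellum, and leaving out 1 library gave 2 to 6 and 1. The count was 2 without cortex WT library C and without cortex SCA1 KI library F. Members differing between regions numbered 1 with edgeR in place of 2. For the 79 related genes in the cortex, 23 were lower and 2 higher; an LFC limit of 1 left 3 and 0, the cortex alone gave 1 higher, and leaving out 1 library gave 15 to 27 lower (15 without WT library C) and 1 to 3 higher. In the cerebellum 3 were lower and 0 higher; DESeq2 gave 6 lower, an LFC limit of 1 gave 1, removal of the length and GC trend gave 3 higher, and leaving out 1 library gave 2 to 4 lower and 0 to 2 higher (2 without WT library 6). The cause was not tested, apart from the stricter limit. Of values of single genes under these settings, 1579 kept direction and call, 46 lost the call, 6 gained it and 19 turned sign, none of the latter past the threshold. The sign turned with length and GC trends removed for Fosb in cortex (0.09) and for Junb (0.11), Arc (0.03) and Nr4a1 (0.10) in cerebellum, and for the regional difference of Fosb with edgeR (−0.02) and DESeq2 (−0.01). With 1 library left out, it turned for Fos (−0.45 to 0.03) and Fosb (−0.29 to 0.28) in cortex; for Fosb (−1.16 to 0.10), Junb (−0.17 to 0.03), Arc (−0.22 to 0.02) and Nr4a1 (−0.31 to 0.28) in cerebellum; for the regional difference of Fosb (−0.15 to 1.11); and for cortex against cerebellum of Fos in SCA1 KI mice (−0.28 to 0.27). Removing length and GC trends moved the share of lower genes among all calls from 69.2% to 56.7% in cortex and from 82.9% to 54.2% in cerebellum. No paired analysis was possible because the columns carry no replicate number of the labels. With 3 libraries per group, intervals were wide, that of Fosb in the cortex running from −1.12 to 1.02.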

Other observations

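How closely a member varied with the others within groups differed from gene to gene, with Egr3 and Npas4 following them least. After the mean of each group was taken from log2(normalized count + 1), Pearson's r over 12 libraries of each member with the mean of the other members was 0.93 for Fos, 0.91 for Egr4, 0.78 for Egr1, 0.77 for Nr4a1, 0.76 for Fosb, 0.73 for Arc, 0.54 for Egr2, 0.51 for Junb, 0.40 for Npas4 and 0.33 for Egr3. Every point shares the depth and tissue of its library, so these are descriptions. The 6 genes outside the members most alike in this pattern were Scfd2 (r = 0.92), Tmem198 (0.91), D19Bwg1357e (0.91), Aldh18a1 (0.91), Urb2 (0.91) and Aggf1 (0.90), none of them in a list of activity genes. They are the extremes of 15369 genes. Of the 6, Tmem198 was lower in the SCA1 KI cortex, at 2630, 3026 and 2539 normalized counts in WT and 2026, 2026 and 1868 in SCA1 KI libraries (LFC −0.47, limma adjusted p = 0.0104), and the other 5 did not pass in either region.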
